A study of Arabidopsis thaliana with 2 samples.

Results

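The 10 type-A response regulator genes of Arabidopsis thaliana (ARR3 to ARR9 and ARR15 to ARR17) were examined for sites bound in vitro by LEAFY (LFY), a transcription factor that directs flower formation. The genes were chosen by name as a family, and every listed interval that overlapped a gene or its flanks was taken, which gave 13 of the 22514 intervals listed for native DNA and 3 of the 4882 listed for amplified DNA. In DNA affinity purification sequencing (DAP-seq), tagged recombinant LFY is mixed with sheared genomic DNA and the recovered fragments are sequenced; in ampDAP-seq the DNA is first copied by PCR, which removes cytosine methylation. The DAP library used DNA from seedlings of the line 35S::LFY (CA26 #15), in which LFY is driven by a viral promoter that is active in most plant cells. The label of the ampDAP library names seedlings and no transgene. In both libraries LFY carried the tag given as 5XMyC and was made with a TnT in vitro transcription and translation system, and the seedlings were 2 weeks old and grown in long days on 0.5-strength Murashige and Skoog medium. Each kind of DNA has 1 library, so no test between them was possible, and the kind of DNA and the plant source cannot be told apart.

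Cytokinin is perceived by histidine kinase receptors and relayed by phosphotransfer proteins to type-B response regulators, which bind DNA and activate transcription. Type-A response regulators are among the genes that type-B regulators switch on. They hold a receiver domain without a DNA-binding output domain, and they dampen the cytokinin response. In the shoot apical meristem, from which flowers arise, ARR7 and ARR15 are known for their part in limiting cytokinin signalling, and ARR7 is repressed there by the stem cell regulator WUSCHEL.

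The files list positions only, each interval 400 bp wide, with no height or score, and read depth is unknown. The gene table gives no strand. Distances are therefore to the nearer end of the gene, which is its start only if the gene starts on that side. The flank to be searched, 3000 bp upstream and 1000 bp downstream, was therefore taken as 3000 bp on both sides, and each interval is described by its side of the gene (lower or higher chromosome coordinate). An interval within 1000 bp of a gene belongs to the searched flank on either strand, and one farther away belongs to it only if the gene starts on that side. Of the 13 DAP intervals, 5 belong on either strand and 8 on 1 strand only; of the 3 ampDAP intervals, 1 belongs on either strand and 2 on 1 strand only. The true strands must therefore give between 6 and 12 DAP intervals at 5 to 9 genes, and between 1 and 3 ampDAP intervals at 1 to 3 genes.

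With 3000 bp on both sides, 9 of the 10 genes had a DAP interval, against 82.3% of all 27444 protein-coding genes, and 3 of 10 had an ampDAP interval, against 32.6%. Both shares were close to those of coding genes in general. The 10 genes held 1.3 DAP intervals each on average, against 1.94 for all coding genes, and 0.3 ampDAP intervals each, against 0.402. Reading every gene as starting at its lower coordinate gave a DAP interval at 7 of 10 type-A genes, against 74.7% of coding genes, and an ampDAP interval at 1 of 10, against 26.5%. Reading every gene as starting at its higher coordinate gave 7 of 10, against 74.5%, and 3 of 10, against 26.6%. Within 1000 bp, where strand does not matter, 4 of 10 genes had a DAP interval, against 63.0%, and 1 of 10 had an ampDAP interval, against 19.9%. All these windows include the gene body, so these contrasts partly restate how often the gene itself is touched, given below. By gene, ARR15 had 3 DAP intervals, ARR7 and ARR9 had 2 each, 6 genes had 1 each, and ARR6 had 0.

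**Figure D1:**
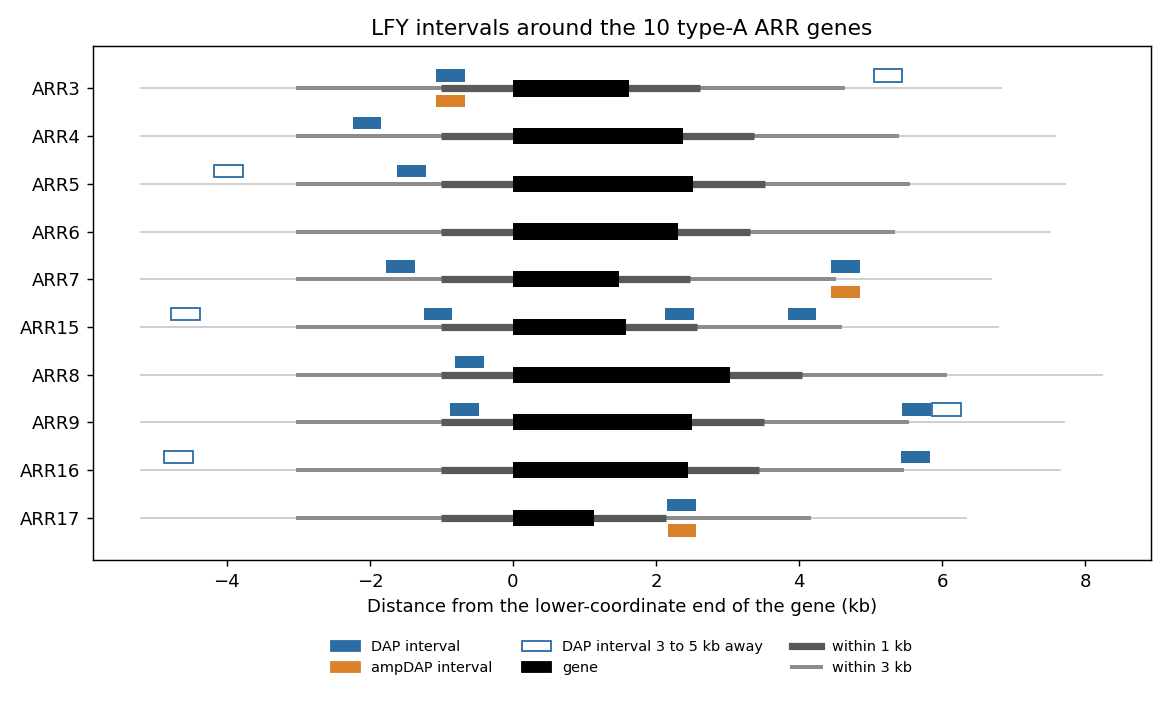
Map of the 10 type-A ARR genes (black bars) drawn to scale, with distance in kb from the lower-coordinate end of each gene on the x axis and 1 row per gene. Filled blue bars are DAP intervals and orange bars ampDAP intervals within 3 kb, open blue bars are DAP intervals 3 to 5 kb away, and the 3 orange bars at ARR3, ARR7 and ARR17 each lie under a blue bar.

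The intervals lay beside the type-A genes and not in them. A DAP interval touched the gene body of 0 of the 10 type-A genes, against 47.1% of all coding genes and 46.4% of the 15264 coding genes whose length lay between that of the shortest and the longest type-A gene (1134 and 3041 bp). An ampDAP interval touched 0 of 10, against 12.9% of all coding genes and 11.9% of those in this range of length. Among 10 genes, 0 is near these ampDAP shares, so this count does not set the type-A genes apart. The median gap from a type-A gene to the nearest DAP interval was 1122 bp, and that over all coding genes was 170 bp. A touched gene counts as a gap of 0, so this contrast partly restates the count of touched genes. For ampDAP intervals the medians were 7466 and 6478 bp. By midpoint, the first 1000 bp of flank on both sides held 0.4 DAP intervals per type-A gene and 0.373 per coding gene.

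ARR7 (AT1G19050), whose product limits cytokinin signalling in the meristem, had an interval in each flank, and its strand decides which of them the search takes. On the lower side, the DAP interval chr1:6576064-6576463 had its midpoint 1570 bp from the gene. The nearest ampDAP midpoint was 6219 bp away, and the DAP midpoint lay inside the neighbouring gene AT1G19040. On the higher side, the DAP interval chr1:6582284-6582683 and the ampDAP interval chr1:6582283-6582682 had midpoints 1 bp apart. These midpoints were 3169 and 3168 bp from ARR7 and lay inside AT1G19060, so that the intervals reached into the 3000 bp flank by 31 and 32 bp. If ARR7 starts at its lower coordinate, it therefore had a site listed for native DNA alone; if it starts at its higher coordinate, it had a site listed for both kinds of DNA at the outer limit of the flank. No interval of either list lay within 1000 bp of ARR7.

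ARR15 (AT1G74890), the closest relative of ARR7, had 3 DAP intervals and 0 ampDAP intervals. The DAP interval chr1:28130202-28130601 lay on the lower side with its midpoint 1046 bp from ARR15, inside NdhO, which encodes a subunit of the chloroplast NDH complex. On the higher side, chr1:28133579-28133978 had its midpoint 753 bp from ARR15 and 155 bp from OTP43, the gene of a mitochondrial RNA-processing protein, and chr1:28135289-28135688 had its midpoint 2463 bp from ARR15 and inside OTP43. The intervals at 1046 and 753 bp belong to the searched flank on either strand, whereas both DAP intervals of ARR7 depend on it. The midpoint at 1046 bp was 2624 bp from the gene start if ARR15 starts at its higher coordinate. The midpoint at 753 bp was 2331 bp from the gene start if ARR15 starts at its lower coordinate. The nearest ampDAP interval to ARR15 was 8605 bp from the gene.

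ARR3 (AT1G59940) was the only type-A gene with an ampDAP interval within 1000 bp. The ampDAP interval chr1:22064545-22064944 and the DAP interval chr1:22064547-22064946 had midpoints 2 bp apart, at 873 and 871 bp on the lower side of ARR3. If ARR3 starts at its higher coordinate, these midpoints were 2489 and 2487 bp from the gene start. The nearest other coding gene, AT1G59930, was 3230 bp from the DAP midpoint. Of the 3 ampDAP intervals, this was the only one that had a type-A gene as its nearest coding gene. ARR4 (AT1G10470), the close relative of ARR3, whose product is known to interact with the red-light receptor phytochrome B, had the DAP interval chr1:3439748-3440147. Its midpoint lay 2041 bp from ARR4 on the lower side, inside the germin-like protein gene GLP7, and 7094 bp from the nearest ampDAP midpoint.

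ARR8 (AT2G41310) and ARR9 (AT3G57040), another pair of close relatives, each had a DAP interval with its midpoint between coding genes. The distances to the nearer gene end were similar, but without strand a shared position relative to the gene start is not shown. If the genes start at the higher coordinate, these midpoints were 3648 bp (ARR8) and 3183 bp (ARR9) from the gene start. At ARR8 the interval chr2:17221033-17221432 had its midpoint 608 bp from the gene on the lower side, and at ARR9 the interval chr3:21108185-21108584 had its midpoint 675 bp away on the lower side. In both cases no other coding gene was nearer. SSL1 was 4940 bp from the midpoint at ARR8. CBL, which encodes cystathionine beta-lyase and lies on the higher side of ARR9, was 3316 bp from the midpoint at ARR9. A long non-coding RNA gene, AT3G08815, lay 33 bp from the ARR9 midpoint, so that the interval overlapped it. A further DAP interval of ARR9, chr3:21114497-21114896, lay inside CBL with its midpoint 3129 bp from ARR9 and reached into the flank by 71 bp. Neither gene had an ampDAP interval in its flanks; the nearest were 5716 bp from ARR8 and 6328 bp from ARR9.

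ARR5 (AT3G48100) and ARR6 (AT5G62920) are close relatives that cytokinin induces quickly, and ARR5 is widely used as a reporter of the response. ARR5 had the DAP interval chr3:17756809-17757208, with its midpoint 1419 bp away on the lower side and inside EDS1, a regulator of plant immunity. ARR6 had 0 intervals in either list, and its nearest DAP interval was 9667 bp from the gene, a gap that is larger than that of 97.2% of coding genes. Its nearest ampDAP interval was 32775 bp away, farther than for 94.2% of coding genes. In both lists the gap of ARR6 was the largest among the 10 genes.

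ARR16 (AT2G40670) and ARR17 (AT3G56380), close relatives known from work on the stomatal lineage of the leaf, each had 1 DAP interval on the higher side. That of ARR17, chr3:20907423-20907822, had its midpoint 1225 bp from the gene inside AT3G56390, and the ampDAP interval chr3:20907429-20907828 was centred 6 bp from it. That of ARR16, chr2:16975100-16975499, reached into the flank by 14 bp, the smallest overlap of the 13, with its midpoint 3186 bp from the gene and inside GLY1, which encodes a glycerol-3-phosphate dehydrogenase. The nearest ampDAP interval to ARR16 was 20602 bp from the gene. ARR16 and ARR17 intervals are within the searched flank only if these genes start at the higher coordinate.

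**Figure D2:**
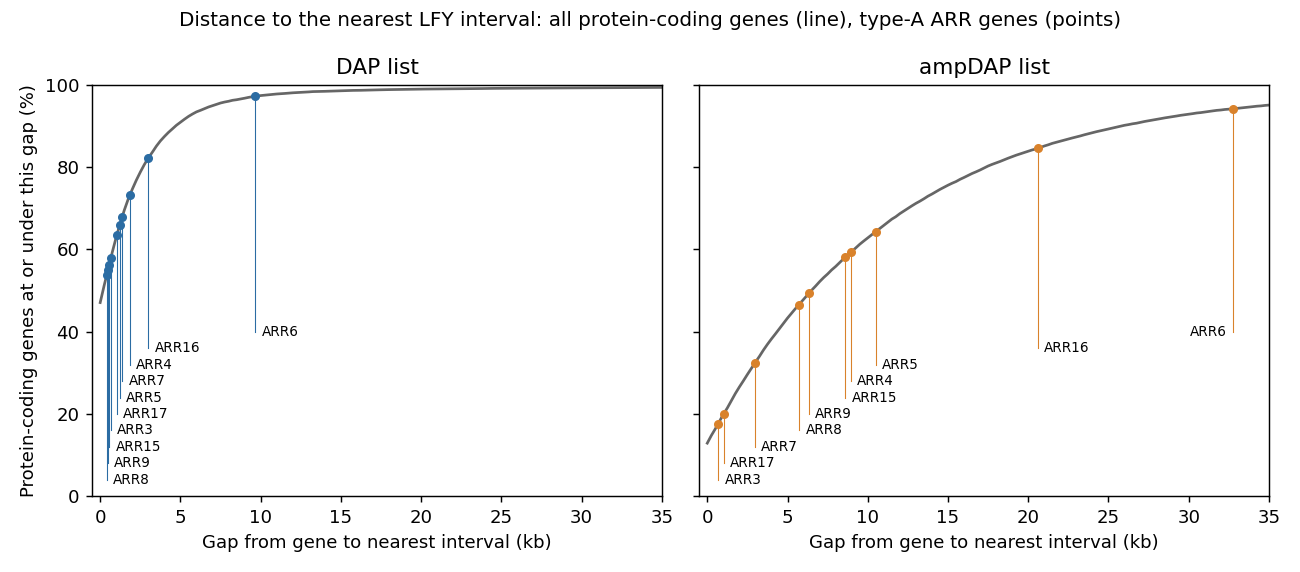
Share of all protein-coding genes (y axis, %) whose gap to the nearest DAP (left) or ampDAP (right) interval is at or under the value on the x axis (kb), with the type-A ARR genes as points at their own gaps. The DAP gaps run from 408 bp at ARR8 to 9667 bp at ARR6. The DAP curve starts at the 47.1% of coding genes touched by an interval, so every untouched gene must lie above that share.

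The share of sites listed for both kinds of DNA was near that of the whole list, with a wide interval. Of the 13 DAP intervals, 3 (23.1%, exact Clopper-Pearson 95% interval 5.04 to 53.8%, counting error only) had an ampDAP midpoint within 200 bp, at ARR3, ARR7 and ARR17. In the whole DAP list 20.4% had one, and among the 21557 DAP intervals within 3000 bp of any coding gene 20.1%. These genes make up 3 of 10, and 31.6% of all coding genes had such a doubly listed site. The midpoints of the 3 pairs were 2, 1 and 6 bp apart, against a median of 7 bp over all pairs in the lists. The other 10 DAP intervals had their nearest ampDAP midpoint between 3398 and 17615 bp away, so that none lay near the limit of 200 bp. Because depth and calling threshold are unknown and the ampDAP list is shorter, a site that is missing from it is not shown to be unbound on amplified DNA.

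Most of the 13 DAP intervals were nearer to another coding gene than to the type-A gene. The same count was not made for the flanks of other coding genes, so this is not shown to be particular to the type-A genes. In 9 of them (69.2%) the midpoint lay inside a neighbouring coding gene, and in the whole DAP list 76.1% of midpoints lay inside a coding gene. The other 4 midpoints lay between coding genes, at ARR3, ARR8, ARR9 and ARR15, although the interval at ARR15 overlapped OTP43. In 3 of the 13, at ARR3, ARR8 and ARR9, the type-A gene was the nearest coding gene. The lists alone do not assign a site to a gene. Just beyond the limit of 3000 bp, the nearest edges of DAP intervals were 3349 bp from ARR9 and 3428 bp from ARR3. The DAP intervals just inside it, described above by midpoint, had their nearest edges 2987 bp (ARR16), 2970 bp (ARR7) and 2930 bp (ARR9) from the gene.

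The same counts were made for the rest of the cytokinin pathway. Of 55 other genes for its receptors, relay proteins, regulators and enzymes, 42 (76.4%) had a DAP interval within 3000 bp and 17 (30.9%) an ampDAP interval, against 82.3% and 32.6% of all coding genes. Both shares were near those of coding genes in general. A DAP interval touched the gene itself in 28 of these 55 genes, against 47.1% of all coding genes. By class, it touched 3 of 3 receptor genes, 2 of 6 phosphotransfer protein genes, 7 of 11 type-B and 0 of 2 type-C regulators, 5 of 11 genes for synthesis, 2 of 9 for activation and 6 of 7 for degradation, and 3 of 6 cytokinin response factors. Gene length was not matched for these classes, and the difference between classes was not tested.

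All 18 ampDAP intervals at these genes had a DAP midpoint 2 to 40 bp away, and in the whole ampDAP list 94.0% had one within 200 bp. The cytokinin receptor genes AHK2 and AHK4 held such a site in the gene body. AHP6, an inhibitor of the phosphorelay, had a site 3081 bp away. Among the type-B activators, ARR1 held a site in the gene body, ARR2 had a site 1199 bp away and ARR14 a site 2798 bp away. Among genes for cytokinin synthesis, IPT5 held a site in the gene body and IPT1 had a site 1824 bp away. The LOG enzymes release active cytokinin. LOG6 held a site in the gene and another 2705 bp away, LOG7 had a site 567 bp away, LOG5 had one 2800 bp away and LOG1 one 3193 bp away. The sites of AHP6 and LOG1 had midpoints beyond 3000 bp and were counted because the interval reached into the flank.

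The cytokinin oxidases that degrade the hormone had an ampDAP interval at 4 of 7 genes, against 32.6% of all coding genes, a difference that was not tested in so few genes. The share was also above that of all coding genes for receptors (2 of 3) and for activation (4 of 9), and below it for every other class. CKX3 and CKX5, which limit cytokinin in the inflorescence meristem, and CKX6 held an ampDAP interval in the gene body. CKX4 had one 2191 bp away. The highest counts among the listed pathway genes were 5 DAP intervals each at CKX3, CKX5 and LOG7 and 4 each at AHK4 and CRF4. The mean over all coding genes was 1.94, and the highest count at a type-A gene was 3. The share of all coding genes with so many intervals was not computed, and gene length was not matched. Some of the intervals at CKX3 and at CKX5 overlapped each other, so they need not be separate sites. Of the 6 cytokinin response factor genes, CRF2 alone had an ampDAP interval, paired with a DAP midpoint 2571 bp away from the gene. Distances in this list are from the gene to the DAP midpoint, on whichever side it lay. Neighbouring genes were not looked up for the pathway sites, so a site may lie in or nearer to another gene.

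**Figure D3:**
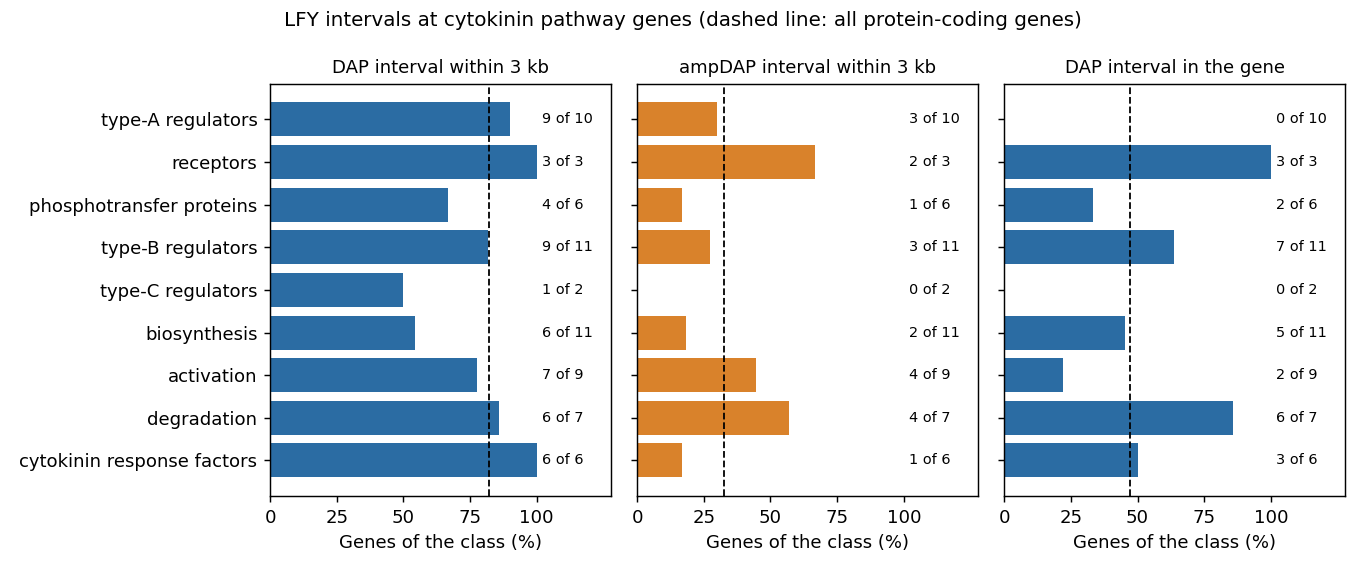
Share of the genes of each cytokinin pathway class (x axis, %) with a DAP interval within 3 kb on either side (left), an ampDAP interval within 3 kb (middle) and a DAP interval touching the gene (right), with the counts printed beside the bars and the share of all protein-coding genes as a dashed line. Type-A regulators had 9 of 10, 3 of 10 and 0 of 10.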

How the data were processed

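LFY binding was listed for 1 DAP and 1 ampDAP library, grouped by the labelled kind of DNA. The submitters' processing notes name Bowtie2, SAMtools, MACS2 and the build TAIR10, with no version or setting; calling threshold, control and the step that gave every interval 400 bp are not given in the sources used here. The deposited lists hold chromosome, start and end, so the only measurements are positions in bp, printed counted from 1.

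Gene names and positions came from the RefSeq gene table of TAIR10.1, whose chromosomes 1 to 5 were assumed to be the same sequences as in TAIR10; no sequence was compared, and every distance rests on this. Its gene models may differ from TAIR10's, its coordinates are not printed, and it has no strand. Coding gene bodies covered 54.1% of the sequence and held 76.1% of DAP and 68.1% of ampDAP midpoints. All 10 member and 55 of 55 pathway identifiers matched their names. An interval was counted at a gene when it overlapped it or 3000 bp on either side, and 2 midpoints at most 200 bp apart were a pair. Counting was tested on simulated intervals. Python 3.11.15, pandas 2.3.3, numpy 2.4.6 and scipy 1.17.1 were used.

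The genes, lists and tests were chosen with earlier results of these data known. All 10 members were named, other coding genes that were nearer to an interval than the member, with the nearest other coding gene at ARR3, ARR8 and ARR9 and the non-coding gene beside ARR9 added after their values were seen, and pathway genes with an ampDAP interval. LFY core motifs, site scores and CG sites were planned, but no genome sequence was used here. Alternatives varied the flanks, the overlap rule and the pairing distance.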

Additional observations from a re-analysis of the deposited data

How the results depend on the processing

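Of 51 recomputed values for 9 counts, 34 stayed within 1.5 times the reported count and 17 did not. With flanks of 1000 bp, there were 5 DAP intervals in place of 13, at 4 genes in place of 9, and 1 ampDAP interval in place of 3, at 1 gene; ARR7 had 0 DAP and 0 ampDAP intervals, the DAP intervals with an ampDAP midpoint nearby were 1 in place of 3, and 10 pathway genes in place of 17 had an ampDAP interval. With the midpoint required inside the flank, ARR7 had 1 DAP and 0 ampDAP intervals. The readings of strand, and all alternatives for the pathway genes, were added after the data were examined. With all genes read as starting at the lower coordinate there were 8 DAP intervals, 1 ampDAP interval at 1 gene and 1 DAP interval with an ampDAP midpoint nearby, and ARR7 had 1 DAP and 0 ampDAP intervals; with the higher coordinate ARR7 had 1 DAP interval. Each change follows from the narrower flank or stricter rule itself. The count without a downstream flank equals the reported one by construction, because 3000 bp were taken on both sides. Pairing limits of 100 bp, 20 bp or any overlap each gave 3 paired DAP intervals. No paired analysis was possible because there was 1 library per group. The planned motif alternatives were not run, because they need sequence that was not used here. Unknown depth and threshold limit every statement on sites missing from a list.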
